A study of Mus musculus with 12 samples.

Results

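The 9 enzymes and carriers of the lipid and thiol side of ferroptosis described here are Acsl1, Acsl4, Lpcat3, Aifm2, Dhodh, Gch1, Sat1, Slc3a2 and Gss. They were taken by gene name from the deposited expression table, and they are 9 of its 54345 genes. All 9 passed the filter on low values, as did 25044 genes of the table, so no member was lost. Each name matched a single mouse Ensembl gene.

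Ferroptosis is a form of cell death driven by iron and by the peroxidation of membrane phospholipids that carry polyunsaturated acyl chains. Acsl4 activates such fatty acids and Lpcat3 places them in phospholipids, while the glutathione that Gpx4 uses to reduce the peroxides is finished by Gss from amino acids whose import depends on Slc3a2. Aifm2, Dhodh and Gch1 belong to routes that quench lipid radicals without Gpx4, and in the heart this death is studied as part of the injury that anthracyclines such as doxorubicin cause.

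The libraries were made from wild-type H9c2(2-1) cells, a line from embryonic heart that the labels call myoblast and mouse and that the study's text describes as rat. How well rat reads match each mouse gene was not tested, and it bears on levels compared between genes. The 4 groups of 3 libraries were collected after 6 h, namely untreated cells (Unt), doxorubicin alone (DOX), doxorubicin with dexrazoxane, a clinical cardioprotectant that chelates iron (D_DXZ), and doxorubicin with magnesium hexacyanoferrate nanocatalysts (D_MgHCF). D_DXZ and D_MgHCF cells therefore also received doxorubicin, and neither agent was given alone. No source used here says whether the 3 libraries of a group came from separate cultures, so the p-values cover the spread between libraries, which may be technical.

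The levels are FPKM, fragments counted relative to gene length and to library size. By the values themselves, a further scaling close to aligning the median gene between libraries was included in these FPKM. Behind them stood 16626514 to 19365119 reads on genes per library, and for the 9 genes between 55 reads, of Dhodh in D_MgHCF 2, and 14960 reads, of Slc3a2. The share of reads on mitochondrial genes was lowest in Unt (1.19 to 1.41%), with 2.73 to 2.89% for DOX, 2.73 to 3.27% for D_DXZ and 1.76 to 3.16% for D_MgHCF, and its part in the results was not tested. The 3 D_MgHCF libraries correlated with each other at 0.942 to 0.984 over all tested genes, against at least 0.989 within the other groups. Values without D_MgHCF 3 are therefore given for some results, and results without such a value can also move. Of 13 muscle markers only Des (1.46 FPKM) and Acta2 (293.5 FPKM) reached a mean of 1 FPKM in Unt, and the myogenic regulator Myod1 was listed at 0 in all Unt libraries, which goes against the label myoblast. The summed muscle list, nearly all of it Acta2, lay at 265.1 to 325.7 FPKM in Unt and 1484 to 2034 FPKM in DOX, and the fibroblast list, led by Vim, at 280.9 to 334.7 and 1010 to 1314. In D_MgHCF these sums were 210.7 to 439.6 and 123.8 to 221.1 FPKM. The cardiomyocyte list went the other way, at 9.66 to 10.98 FPKM in Unt, 2.21 to 5.02 in DOX and 15.9 to 25.9 in D_MgHCF. Its 1 gene at 1 FPKM or more, the cardiac transcription factor Gata4, averaged 10.3, 3.35 and 19.2 FPKM, and within the muscle list Des averaged 0.552 and Mef2c 0.297 FPKM in DOX, against 1.46 and 0.933 FPKM in Unt. Their part in the results was not tested. In such bulk libraries, fewer cells with a transcript and less of it per cell cannot be told apart. Macrophage, endothelial and epithelial markers held 1 of 6, 0 of 4 and 0 of 4 genes at 1 FPKM or more in Unt.

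Differences are given as log2 fold changes of FPKM + 1, a scale that understates the changes of low genes, with a standard error (SE) from limma fitted to all 25044 genes and all 4 groups. A gene was called higher or lower at a Benjamini-Hochberg adjusted p under 0.05 over all genes tested. TPM and scaling to summed reads each divide a library by 1 factor and so shift its genes together, while quantile normalization moves genes by different amounts. On the 12434 genes with at least 1 FPKM in 3 libraries, the median log2 change of DOX against Unt was 0.02 as deposited, -1.18 after scaling to equal totals (TPM) and -0.68 after scaling to summed reads, and that of D_MgHCF against DOX was -0.02, 1.02 and 0.67. Of all calls in DOX against Unt 48.3% were higher as deposited, 9.8% with TPM and 20% with summed reads. In D_MgHCF against DOX the share was 61%, 88.9% and 83.8%, and 48.5% after quantile normalization. Each member is therefore also placed against this median (log2 change minus the median of the 12434 genes, called here the relative change) in 5 scalings, which are the deposited values, TPM, summed reads, quantile normalization and voom on recovered reads. The text says where the side of the median differs. Taking off the median removes any factor shared by a library, and all but quantile normalization scale by 1 factor a library. Agreement between those scalings is therefore largely given in advance and is no separate check. Quantile normalization is the scaling that can move expressed genes apart.

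DOX raised 6 of the 9 genes and lowered none as deposited, at a background of 18.6% of all tested genes higher and 19.9% lower. Here and below, the background spans 25044 tested genes, of which 12434 had at least 1 FPKM in 3 libraries, as all 9 members did. The share called among those 12434 alone was not computed and may be higher. By log2 change, the 6 genes stood above 66.9% (Aifm2) to 89.5% (Lpcat3) of the 12434. The split turned with the scaling, to 1 higher and 4 lower with TPM and 3 and 3 with summed reads, and it was 6 and 1 after quantile normalization and 5 and 2 with voom. The 6 as deposited are Lpcat3, Gss, Sat1, Acsl4, Gch1 and Aifm2, and all of them stayed above the median gene in all 5 scalings. The median log2 change of the 9 genes was 0.75, against 0.00 for all genes tested. In D_MgHCF against DOX, 2 genes were higher (Gch1 and Acsl1) and 6 lower (Dhodh, Acsl4, Sat1, Gss, Aifm2 and Lpcat3), at a background of 31.4% higher and 20.1% lower. The split became 4 and 1 with TPM and with summed reads, 4 and 4 after quantile normalization, and 2 and 6 with voom. As deposited, the median was -0.88 for the 9 genes and 0.07 for all genes. Lpcat3 was the exception among these 8, since its relative change was above the median after quantile normalization and below it in the other 4 scalings.

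D_DXZ against DOX called none of the 9 genes and none of the 25044, a background of 0% higher and 0% lower. At an unadjusted p under 0.05 it held 1 member, Lpcat3, with 4.56% of all genes higher and 4.97% lower. Against Unt, D_DXZ had 4 genes higher (Acsl4, Lpcat3, Sat1 and Gss) and Dhodh lower, at 15.9% and 18% of all genes, a split that went from 0 higher and 4 lower (TPM) to 6 and 1 (quantile normalization) over the other scalings. D_MgHCF had 4 higher (Gch1, Lpcat3, Acsl1 and Gss) and 2 lower (Dhodh and Slc3a2) than Unt, at 24.3% and 15.7%. D_MgHCF against D_DXZ, the direct comparison of both agents, had 2 higher (Gch1 and Acsl1) and 5 lower (Acsl4, Dhodh, Sat1, Gss and Aifm2), at 29.4% and 19%, and 4 higher with 1 lower (TPM), 2 lower (summed reads) or 4 lower (quantile normalization). These comparisons share libraries, so their counts are not independent of each other.

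**Figure D1:**
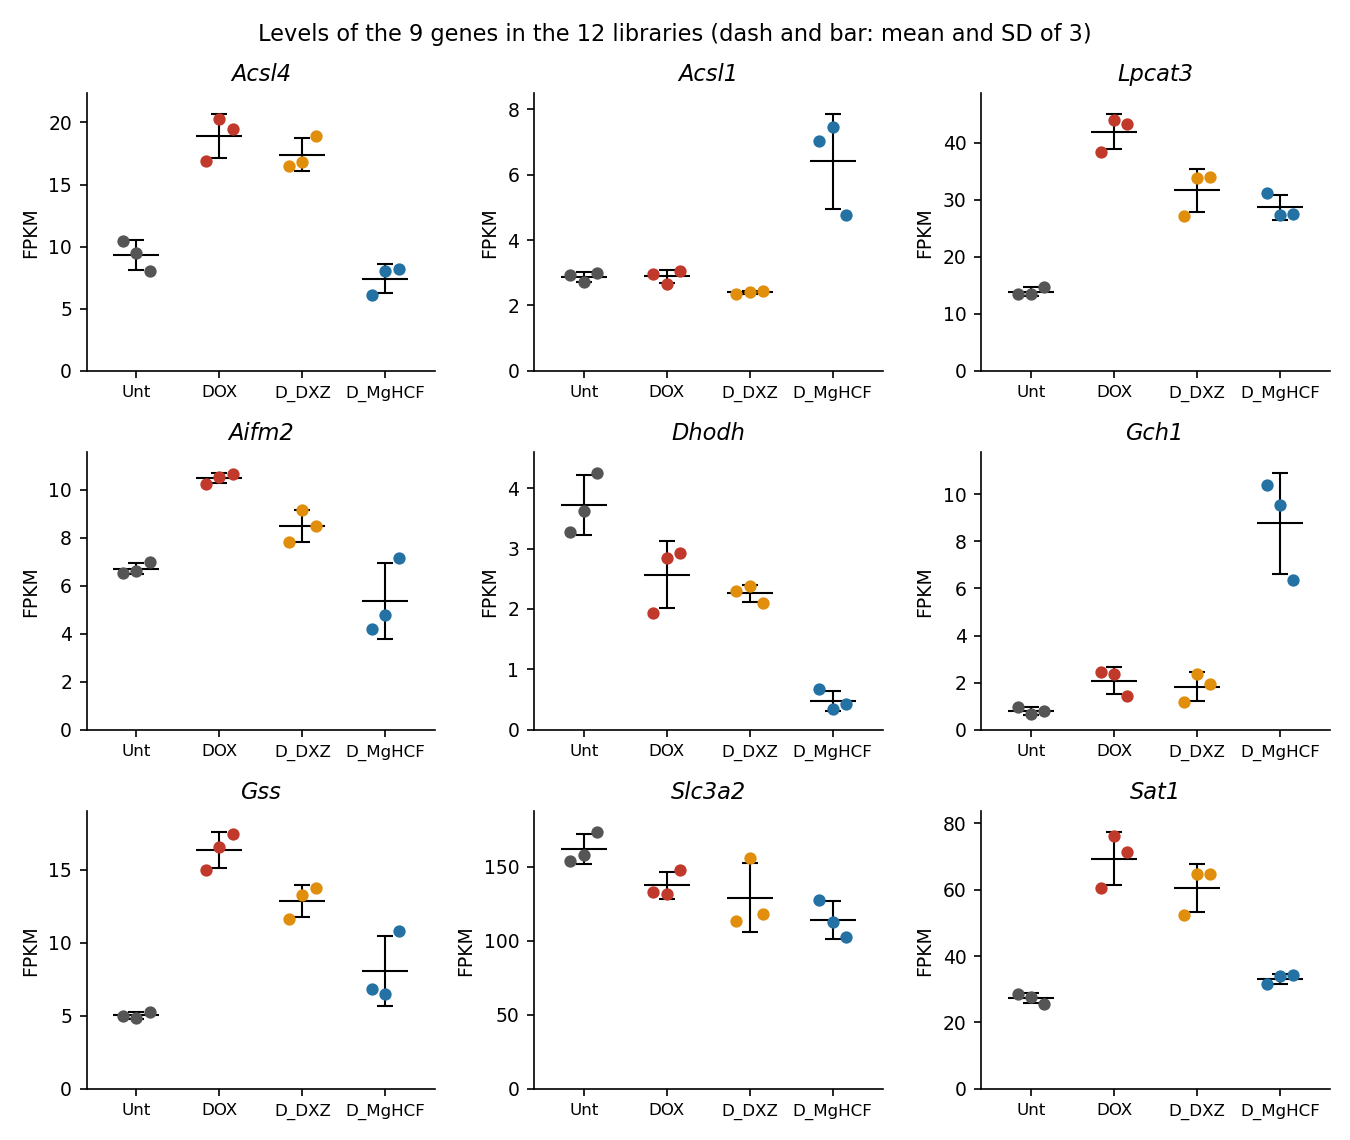
FPKM of each gene (y axis from 0, own scale per panel) in the 3 libraries of Unt, DOX, D_DXZ and D_MgHCF (x axis); points are libraries, dashes and bars the mean and SD of 3. Acsl4, Lpcat3, Aifm2, Gss and Sat1 are highest in DOX, while Acsl1 and Gch1 are highest in D_MgHCF, at means of 6.41 and 8.76 FPKM.

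**Figure D2:**
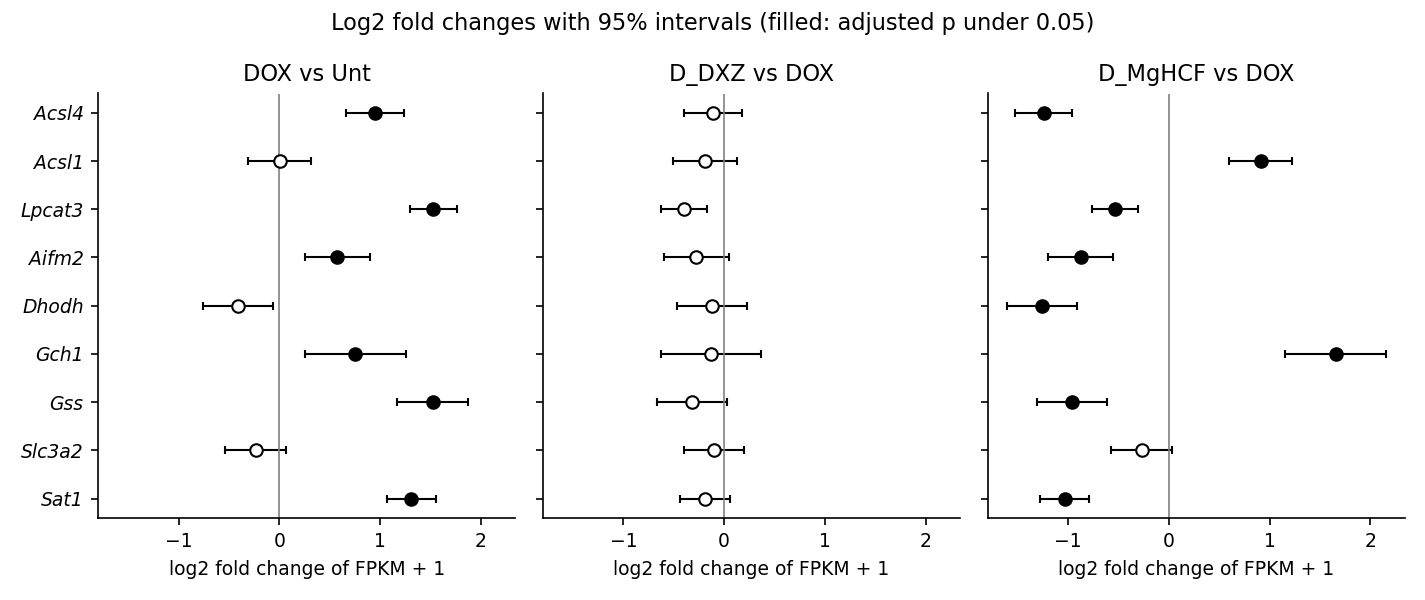
Log2 fold change of FPKM + 1 (x axis) with its 95% interval for each gene in 3 panels (DOX against Unt, then D_DXZ and D_MgHCF each against DOX); filled points have an adjusted p under 0.05. As deposited, 6 genes are higher in DOX (of which Acsl4, Aifm2, Gch1 and Sat1 turn in TPM before the median is taken off, and Aifm2 with summed reads), none passes between D_DXZ and DOX, and 2 are higher and 6 lower in D_MgHCF than in DOX, of which Lpcat3 turns in 3 other scalings and Aifm2, Sat1 and Gss turn in TPM.

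The promoters of 4 of the genes are printed from RefSeq on GRCm38.p6. As deposited, Lpcat3, Acsl4 and Sat1 moved up together in DOX and Gch1 alone rose with DOX and again with D_MgHCF. Gss, with the largest ratio of means in DOX, and Aifm2 rose there too, and their windows were scanned but are not printed. With TPM, the log2 change of DOX against Unt was 0.22 for Lpcat3 but -0.33 for Acsl4, -0.026 for Sat1 and -0.0168 for Gch1. Each window holds 250 bases before and 50 bases after a start listed for the mouse gene, 5′ to 3′ on the gene's strand. For Aifm2 (61720399 to 61720698) and Slc3a2 (8713848 to 8714147) the window lies inside the gene span given below. Their motif counts therefore do not describe the outer start of that span. Of the 9 genes, 8 had an entry, and that for Dhodh is missing. Capitals mark the CCAAT box (CCAAT), the GC box (GGGCGG), the TATA box (TATAAA) and the core of the cAMP response element (TGACG), on either strand, as letters and not as tested binding sites. The cells' own promoters were not analysed here.
Acsl4 promoter, chrX:142390486-142390785, minus strand: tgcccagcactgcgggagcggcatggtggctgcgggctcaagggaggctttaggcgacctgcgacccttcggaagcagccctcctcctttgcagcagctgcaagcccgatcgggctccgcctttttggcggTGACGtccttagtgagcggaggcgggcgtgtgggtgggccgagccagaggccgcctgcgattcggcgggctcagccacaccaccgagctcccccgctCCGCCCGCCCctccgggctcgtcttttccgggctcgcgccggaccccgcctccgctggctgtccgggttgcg
Lpcat3 promoter, chr6:124662854-124663153, plus strand: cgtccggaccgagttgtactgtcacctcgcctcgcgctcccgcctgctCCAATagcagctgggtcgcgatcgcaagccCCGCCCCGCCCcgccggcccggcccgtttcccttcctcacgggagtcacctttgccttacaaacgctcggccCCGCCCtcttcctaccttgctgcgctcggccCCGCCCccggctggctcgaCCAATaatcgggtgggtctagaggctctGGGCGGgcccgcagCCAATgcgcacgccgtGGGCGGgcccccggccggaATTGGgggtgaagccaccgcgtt
Gch1 promoter, chr14:47189364-47189663, minus strand: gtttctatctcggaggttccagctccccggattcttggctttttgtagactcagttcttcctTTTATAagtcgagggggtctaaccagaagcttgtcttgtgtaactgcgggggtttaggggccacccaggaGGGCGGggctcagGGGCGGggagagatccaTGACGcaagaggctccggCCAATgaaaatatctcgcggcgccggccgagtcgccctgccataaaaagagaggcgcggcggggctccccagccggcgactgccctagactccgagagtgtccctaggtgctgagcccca
Sat1 promoter, chrX:155216400-155216699, minus strand: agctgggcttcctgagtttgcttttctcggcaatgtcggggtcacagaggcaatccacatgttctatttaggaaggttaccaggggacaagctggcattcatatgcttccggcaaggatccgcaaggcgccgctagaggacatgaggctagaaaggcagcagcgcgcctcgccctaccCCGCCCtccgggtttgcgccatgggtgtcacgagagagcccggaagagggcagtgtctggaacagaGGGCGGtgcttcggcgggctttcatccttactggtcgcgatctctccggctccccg
The window of Gch1 alone among the members held TATAAA, which 13.6% of all 32851 promoter windows hold on either strand. In Gch1 the match lies on the strand opposite to the gene and is printed as TTTATA. The same window also held TGACG, as did that of Acsl4, and 20.8% of all windows do. The GC box occurred 7 times at the first start of Acsl1, 6 times at Lpcat3, 2 times each at Acsl4, Gch1, Sat1 and Slc3a2, and 1 time at Gss, and 35.7% of all windows hold it. The CCAAT box, in 37.4% of all windows, occurred 4 times at Lpcat3, 1 time at Gch1 and 2 times at the second start of Acsl1. The 4 longer elements searched were in none of the member windows, namely the E-box CACGTG (7.15% of all windows), the full cAMP response element TGACGTCA (1.79%), the antioxidant response element TGACNNNGC (12.4%) and the ATF4 element TGATGNAA (3.97%).

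Acsl4 (ENSMUSG00000031278, GRCm38 chromosome X, 142317993 to 142390535, minus strand) encodes the acyl-CoA synthetase that prefers arachidonic and adrenic acid. It stood at 10.4, 9.45 and 8.05 FPKM in the Unt libraries and at 16.9, 20.3 and 19.5 FPKM in DOX. D_DXZ had 16.5, 16.8 and 18.9 FPKM, and D_MgHCF 6.11, 8.02 and 8.16 FPKM. Every DOX and D_DXZ library lay above every Unt and D_MgHCF library. DOX raised the gene 2.03-fold by means (log2 change 0.95, SE 0.13, limma adjusted p = 0.000168), a relative change of 0.74 to 0.98 over the 5 scalings. D_MgHCF was lower than DOX by a log2 change of -1.24 (SE 0.13, limma adjusted p = 2.89e-05), a relative change of -1.29 to -1.02. Neither call held with TPM, where the log2 changes were -0.33 (adjusted p = 0.203) and -0.13 (0.578), or with summed reads, at 0.0665 (0.854) and -0.35 (0.067). DOX and D_DXZ were neighbours in level (log2 difference -0.11, 95% interval -0.39 to 0.18), and so were Unt and D_MgHCF (-0.29, interval -0.58 to -0.01, limma adjusted p = 0.0932).

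Acsl1 (ENSMUSG00000018796, chromosome 8, 46471037 to 46536051, plus strand) encodes the long-chain acyl-CoA synthetase that dominates in heart and fat and activates saturated and monounsaturated fatty acids as well. Its levels were 2.93, 2.72 and 3.01 FPKM in Unt, 2.97, 2.65 and 3.05 in DOX, and 2.34, 2.42 and 2.44 in D_DXZ. In D_MgHCF it reached 7.03, 7.45 and 4.76 FPKM, with no overlap with any other group. D_MgHCF exceeded DOX 2.22-fold (log2 change 0.91, SE 0.14, limma adjusted p = 0.000381, relative change 0.69 to 1.19) and Unt by a log2 change of 0.91 (limma adjusted p = 0.000802). The call against DOX held in all 22 alternatives tried. Not all of these could lose it, since an unadjusted p cannot, and leaving out an Unt or D_DXZ library changes only the shared spread. DOX and Unt were the closest neighbours among the members (log2 difference 0.00, interval -0.31 to 0.32), on either side of the median gene depending on the scaling (-0.04 to 0.41). Within a library, the ratio of Acsl4 to Acsl1 FPKM is the same under any scaling by 1 factor a library, though not after quantile normalization. As deposited it was 3.24 ± 0.489 in Unt, 6.58 ± 0.996 in DOX, 7.24 ± 0.437 in D_DXZ and 1.22 ± 0.441 in D_MgHCF (SD, n = 3 each), so the 2 synthetases stood nearly level in D_MgHCF. This ratio was chosen after the values were seen and is given as a description, without a test.

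Lpcat3 (ENSMUSG00000004270, chromosome 6, 124663027 to 124704418, plus strand) encodes the acyltransferase that loads arachidonoyl chains into lysophospholipids. Unt had 13.5, 13.4 and 14.8 FPKM and DOX 38.4, 44.0 and 43.3 FPKM. D_DXZ had 27.2, 33.8 and 33.9 FPKM, and D_MgHCF 31.2, 27.3 and 27.4 FPKM. All treated libraries lay above all Unt libraries, and all DOX libraries lay above those of the other groups. The rise in DOX was 3.02-fold (log2 change 1.53, SE 0.10, limma adjusted p = 1.09e-05, relative change 1.00 to 1.55), and its call held in all 22 alternatives. D_MgHCF still exceeded Unt by a log2 change of 0.99 (limma adjusted p = 9.2e-05), also in all 22 alternatives. Against DOX, D_MgHCF was lower as deposited (-0.53, SE 0.10, limma adjusted p = 0.00158), but higher by 0.66 with TPM, 0.41 with summed reads and 0.28 after quantile normalization, with relative changes from -0.51 to 0.32. The mean of D_DXZ lay between both as deposited, with D_DXZ 1 below all D_MgHCF libraries (log2 change -0.40 against DOX, interval -0.63 to -0.17, unadjusted p = 0.00307, limma adjusted p = 0.305). Of the exon bases of Lpcat3, 334 (10.2%) also belong to Emg1 on the other strand, which averaged 21.7 FPKM. The counting is not stated to use strand, so reads there cannot be told apart.

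Aifm2 (ENSMUSG00000020085, chromosome 10, 61715263 to 61739260, plus strand), also called FSP1, encodes the oxidoreductase that regenerates reduced coenzyme Q at the plasma membrane. It was measured at 6.55, 6.62 and 6.97 FPKM in Unt and at 10.2, 10.5 and 10.7 FPKM in DOX. D_DXZ had 7.83, 9.16 and 8.47 FPKM, and D_MgHCF 4.18, 4.78 and 7.16 FPKM. The DOX libraries stood above all others, and D_MgHCF 3 lay above the Unt libraries while D_MgHCF 1 and 2 lay below them. The rise in DOX was 1.56-fold (log2 change 0.57, SE 0.15, limma adjusted p = 0.00902, relative change 0.40 to 0.71), with an adjusted p of 0.0648 when voom was run on the recovered reads. With TPM the log2 change turned to -0.69 (adjusted p = 0.0276) and with summed reads to -0.27 (0.262). D_MgHCF was lower than DOX by -0.88 (SE 0.15, limma adjusted p = 0.000583, relative change -0.94 to -0.70), a call lost with summed reads (-0.0237, adjusted p = 0.92) and with TPM (0.21, adjusted p = 0.444). Against Unt its log2 change was -0.30 (limma adjusted p = 0.122), and without D_MgHCF 3 it was -0.50 (adjusted p = 0.000823). D_DXZ and Unt differed by 0.30 (limma adjusted p = 0.161), and by the same 0.30 with an adjusted p of 0.00927 once D_MgHCF 3, which enters through the shared spread alone, was left out. Of its exon bases, 233 (5.65%) are shared with H2afy2 on the other strand, which averaged 0.188 FPKM.

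Dhodh (ENSMUSG00000031730, chromosome 8, 109591343 to 109608673, minus strand) encodes the mitochondrial enzyme that oxidises dihydroorotate in pyrimidine synthesis and passes the electrons to coenzyme Q. Its levels fell from 3.27, 3.63 and 4.25 FPKM in Unt to 0.670, 0.341 and 0.425 FPKM in D_MgHCF. DOX had 1.93, 2.85 and 2.92 FPKM, and D_DXZ 2.30, 2.38 and 2.11 FPKM. D_MgHCF lay below every library of the other groups, with a mean at 0.187 times that of DOX and 0.129 times that of Unt. The log2 change was -1.26 against DOX (SE 0.16, limma adjusted p = 8.71e-05, relative change -2.39 to -1.24) and -1.68 against Unt (limma adjusted p = 5.37e-05, relative change -2.91 to -1.55), and both calls held in all 22 alternatives. The D_MgHCF values rest on 89, 55 and 66 reads. DOX and Unt differed by -0.41 (SE 0.16, limma adjusted p = 0.0627), with relative changes of -0.59 to 0.02, and the adjusted p became 0.0461 without D_MgHCF 1 and 0.0487 without D_MgHCF 3. The gene was called lower there with voom (-0.68, 0.015), TPM (-1.71, 2.85e-05) and summed reads (-1.12, 0.000111) and when only genes with at least 1 FPKM in 3 libraries were tested (0.0265), while quantile normalization gave 0.0434. D_DXZ was lower than Unt (-0.53, SE 0.16, limma adjusted p = 0.0232), and that call was lost without Unt 2 (0.0636), Unt 3 (0.0984), D_DXZ 1 (0.0505), D_DXZ 2 (0.0519) or D_DXZ 3 (0.0784), after quantile normalization (-0.14, 0.612) and with a pseudocount of 0.1 (0.0538).

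Gch1 (ENSMUSG00000037580, chromosome 14, 47153895 to 47189413, minus strand) encodes GTP cyclohydrolase, the rate-limiting enzyme of tetrahydrobiopterin synthesis. Its promoter window is the one above with TATAAA, on the strand opposite to the gene. Gch1 was the lowest member in Unt, at 0.986, 0.654 and 0.805 FPKM. DOX had 2.44, 2.37 and 1.44 FPKM and D_DXZ 1.17, 2.38 and 1.94 FPKM, while D_MgHCF had 10.4, 9.53 and 6.34 FPKM. D_MgHCF was above, and Unt below, every library of the other groups. D_MgHCF exceeded Unt 10.7-fold by means (log2 change 2.41, SE 0.22, limma adjusted p = 5.37e-05, relative change 2.47 to 3.50) and DOX 4.20-fold (1.65, SE 0.22, limma adjusted p = 0.000158, relative change 1.48 to 2.13). Both calls held in all 22 alternatives. DOX exceeded Unt 2.56-fold (0.75, SE 0.22, limma adjusted p = 0.0214, relative change 0.73 to 1.30), and this call was lost without Unt 2 (adjusted p = 0.0748), Unt 3 (0.0556), DOX 1 (0.0737) or DOX 2 (0.0768) and without a filter on low values (0.0515). With summed reads it was 0.22 (adjusted p = 0.512) and with TPM -0.0168. D_DXZ against Unt came to 0.62 (limma adjusted p = 0.0569), and to 0.0226 without D_DXZ 1, 0.0498 without DOX 3 and 0.0261 without D_MgHCF 3. It was also called with a pseudocount of 0.1 (adjusted p = 0.0209), with the filter at 1 FPKM (0.0205), after quantile normalization (0.0377) and with voom (0.0361). D_DXZ and DOX differed by -0.13 (interval -0.63 to 0.37), and by 0.05 without D_DXZ 1.

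The ratio of Gch1 to Dhodh within a library, chosen after the values were seen, was 0.301, 0.180 and 0.190 in Unt and 1.27, 0.832 and 0.492 in DOX. It was 0.508, 1.00 and 0.921 in D_DXZ and 15.5, 27.9 and 14.9 in D_MgHCF. By FPKM, Dhodh was thus the higher of both in all Unt libraries, and Gch1 in all D_MgHCF libraries. How well rat reads match either gene bears on this order and was not tested.

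**Figure D3:**
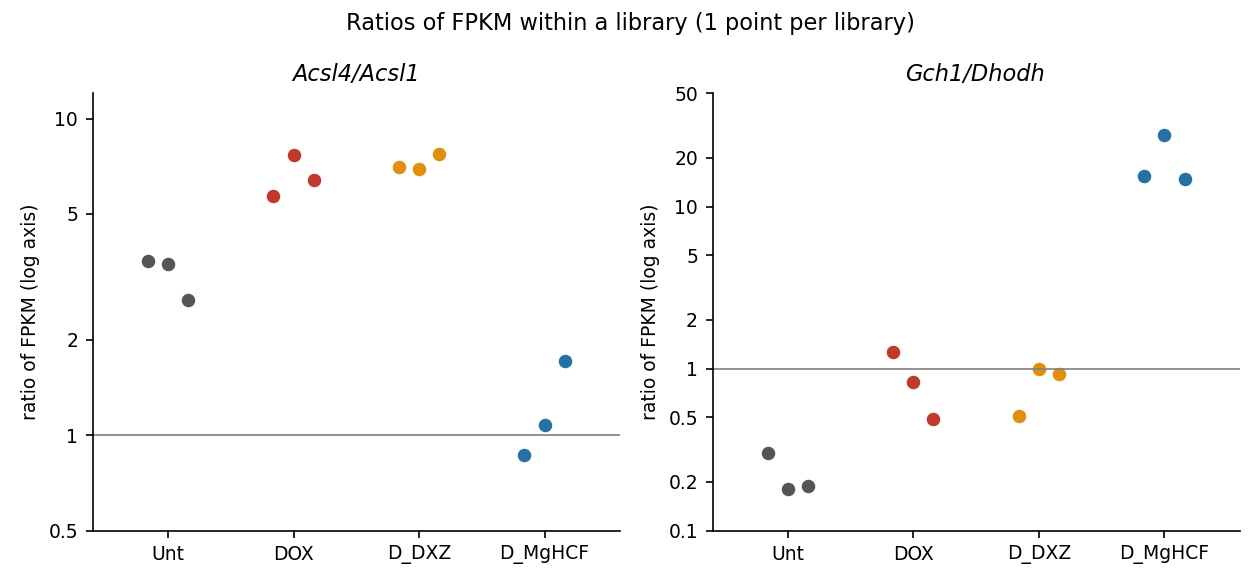
Ratio of FPKM of Acsl4 to Acsl1 (left) and of Gch1 to Dhodh (right) within each library, on a log axis, by group; 1 point is 1 library and the grey line marks equal levels. The first ratio is 5.69 to 7.66 in DOX and 0.870 to 1.72 in D_MgHCF, the other 0.492 to 1.27 in DOX and 14.9 to 27.9 in D_MgHCF.

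Gss (ENSMUSG00000027610, chromosome 2, 155563181 to 155592810, minus strand) encodes glutathione synthetase, which adds glycine in the last step of glutathione synthesis. Unt had 5.02, 4.83 and 5.29 FPKM and DOX 15.0, 16.6 and 17.4 FPKM. D_DXZ had 11.6, 13.2 and 13.8 FPKM and D_MgHCF 6.87, 6.51 and 10.8 FPKM. The groups followed each other as DOX, D_DXZ, D_MgHCF and Unt without overlap between libraries, and D_MgHCF 3 stood above D_MgHCF 1 and 2. DOX raised the gene 3.24-fold, the largest ratio of means of the 9 in that comparison (log2 change 1.52, SE 0.16, limma adjusted p = 3.45e-05, relative change 1.34 to 1.65), and with TPM the log2 change was 0.31 (adjusted p = 0.293). D_MgHCF was lower than DOX by -0.96 (SE 0.16, limma adjusted p = 0.000511, relative change -0.996 to -0.75), but with summed reads the log2 change was -0.0741 (adjusted p = 0.714) and with TPM 0.16 (0.53). It was higher than Unt by 0.55 (limma adjusted p = 0.0184), a call that was lost without Unt 1 (0.0522) or Unt 2 (0.0594), with voom (0.0594) and with TPM (0.092), and in a fit of both groups alone (0.0879). Without D_MgHCF 3 the difference was 0.35 (adjusted p = 0.0103). Exon bases of Gss are shared with Acss2 (395, or 6.68%), Gssos1 (322) and Gssos2 (385) on the other strand, of which Acss2 averaged 4.95 FPKM and the antisense genes at most 0.0835 FPKM.

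Slc3a2 (ENSMUSG00000010095, chromosome 19, 8706882 to 8723369, minus strand) encodes the heavy chain CD98hc, which brings amino acid exchangers such as the cystine carrier Slc7a11 to the cell surface. It was the most abundant member per length in every group, with 154, 158 and 173 FPKM in Unt and 133, 131 and 148 FPKM in DOX. D_DXZ had 114, 156 and 118 FPKM and D_MgHCF 127, 112 and 102 FPKM. All Unt libraries lay above all DOX libraries and these above all D_MgHCF libraries, while D_DXZ overlapped each of the other groups. The log2 change was -0.24 in DOX against Unt (SE 0.14, limma adjusted p = 0.226), and its relative change was below the median in all 5 scalings (-1.80 to -0.26). In the other 4 scalings the gene was called lower, by -1.60 with TPM (adjusted p = 5.2e-06), -1.18 with summed reads (1.65e-05), -1.78 after quantile normalization (8.07e-06) and -0.36 with voom (0.0151). D_MgHCF was lower than Unt (-0.51, SE 0.14, limma adjusted p = 0.0142), a call that was lost without Unt 3 (0.0543) and in a fit of both groups alone (0.0503). D_DXZ against Unt had -0.34 (limma adjusted p = 0.0843), and -0.48 without D_DXZ 2 (adjusted p = 0.0162), and it too was called lower in the other 4 scalings (-1.64 to -0.47). D_MgHCF and DOX differed by -0.27 as deposited (interval -0.57 to 0.03) but by 0.94 with TPM, 0.69 with summed reads and 1.10 after quantile normalization, with relative changes on both sides of the median (-0.25 to 1.14). A stretch of at most 182 bases of Slc3a2 transcripts matched 128 other genes at 95% identity or more, so some of its reads may be assigned uncertainly.

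Sat1 (ENSMUSG00000025283, chromosome X, 155213132 to 155216449, minus strand) encodes the acetyltransferase that starts the breakdown of spermidine and spermine. Unt had 28.6, 27.6 and 25.6 FPKM, DOX 60.5, 76.3 and 71.2 FPKM, D_DXZ 52.3, 64.8 and 64.8 FPKM, and D_MgHCF 31.5, 33.9 and 34.3 FPKM. Every DOX and D_DXZ library lay above every D_MgHCF library, and these lay above every Unt library. DOX raised the gene 2.54-fold (log2 change 1.31, SE 0.11, limma adjusted p = 1.41e-05, relative change 0.34 to 1.30), while with TPM the log2 change was -0.026 (adjusted p = 0.942). D_MgHCF was lower than DOX by -1.03 (SE 0.11, limma adjusted p = 3.58e-05), with a relative change of -1.01 to -0.02, the value next to 0 being that of quantile normalization. The call was lost there (log2 change -0.059, adjusted p = 0.664), with summed reads (-0.0847, 0.446) and with TPM (0.16, 0.275). Against Unt, D_MgHCF had a log2 change of 0.28 (interval 0.03 to 0.52, limma adjusted p = 0.0715), with an adjusted p of 0.0458 when D_DXZ 1 was left out of the shared spread, 0.0243 with summed reads and 0.0236 after quantile normalization. Pseudogenes resemble Sat1, of which Gm5552 shares 515 bases at 96.7% identity and reached at most 0.154 FPKM.

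D_DXZ against DOX tests what dexrazoxane adds to doxorubicin, and its intervals bound the difference. All 9 log2 changes were negative as deposited, from -0.40 (Lpcat3) to -0.10 (Slc3a2). After subtracting the median gene, 6 lay below it in all 5 scalings and 3 had mixed sides. The 95% intervals reached from -0.67 (Gss) to 0.37 (Gch1), so a change of 1 in log2 of FPKM + 1 lies outside all of them as deposited. That scale understates the changes of low genes such as Gch1, so a larger change of their FPKM itself is not excluded. In the direct comparison, D_MgHCF differed from D_DXZ in Gch1 (1.78, SE 0.22, limma adjusted p = 0.00012), Acsl1 (1.10, SE 0.14, adjusted p = 0.000137), Dhodh (-1.15, SE 0.16, adjusted p = 0.000197) and Acsl4 (-1.13, SE 0.13, adjusted p = 6.22e-05). The relative change of these 4 genes kept its side of the median in all 5 scalings, and only the call of Acsl4 was lost in one of them (TPM, -0.19, adjusted p = 0.423). Sat1 (-0.84), Gss (-0.64) and Aifm2 (-0.60) were lower too, with limma adjusted p of 0.000156, 0.00681 and 0.00658. The call of Sat1 was lost after quantile normalization (-0.0929, adjusted p = 0.468), with summed reads (-0.0785, 0.49) and with TPM (0.18, 0.236). Gss and Aifm2 lost theirs with summed reads (0.0693 and 0.0805), with TPM (0.32 and 0.33) and in a fit of both groups alone (0.0564 and 0.0637 as adjusted p). Lpcat3 (-0.13, interval -0.36 to 0.10) and Slc3a2 (-0.17, interval -0.47 to 0.13) did not pass the threshold as deposited, and both were called higher with TPM (0.89 and 0.87), summed reads (0.62 and 0.61) and quantile normalization (0.46 and 0.95).

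**Figure D4:**
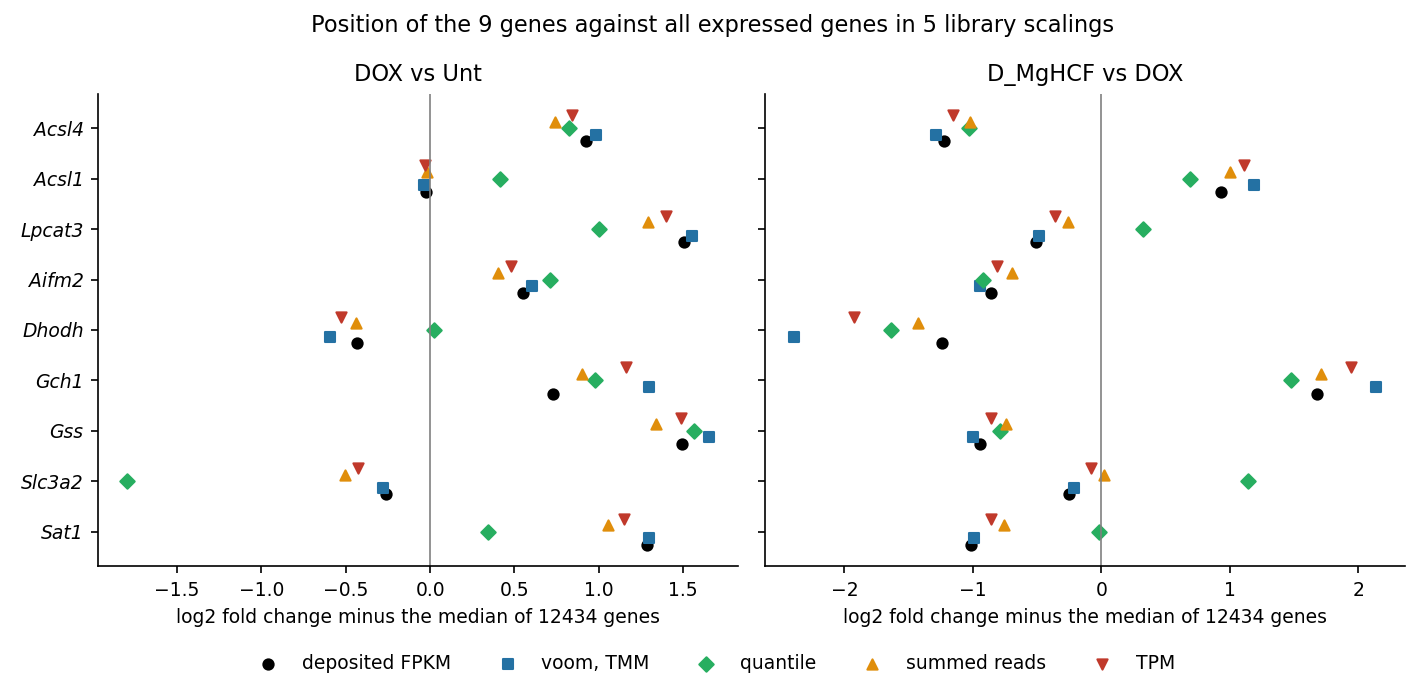
Log2 fold change minus the median of 12434 genes (x axis) for each gene in 5 library scalings, for DOX against Unt and D_MgHCF against DOX; the grey line is the median gene. Lpcat3, Gss, Acsl4, Gch1, Sat1 and Aifm2 lie right of the line in DOX in all 5, Gch1 and Acsl1 lie right of it in D_MgHCF in all 5, and Dhodh and Acsl1 in DOX and Lpcat3 and Slc3a2 in D_MgHCF fall on both sides.

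Among the 9 genes, the profiles nearest to each other over the 12 libraries were those of Sat1 and Gss (Euclidean distance 0.65 between centred log2 values) and of Acsl4 and Sat1 (0.77). Over 6877 other genes with a mean of at least 5 FPKM, the gene nearest to Acsl1 was Zdhhc9 (distance 0.23), which averaged 4.74 FPKM in DOX and 9.19 FPKM in D_MgHCF. The nearest to Gch1 was Vmac (0.40), at 6.94 and 23.9 FPKM. Acsl4 had Shcbp1 (0.34), Lpcat3 had Oaz2 (0.26), Aifm2 had Mrpl49 (0.26), Dhodh had Elp3 (0.29), Sat1 had Ncbp2 (0.23), Slc3a2 had Rcan3 (0.31) and Gss had Pttg1ip (0.32). The median distance to all 6877 genes lay between 1.89 (Acsl4) and 4.06 (Gch1).

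Another 63 genes of the same pathways were read beside the members, of which 62 passed the filter on low values and Slc7a10 did not. In DOX against Unt 26 were higher and 6 lower, and in D_MgHCF against DOX 13 were higher and 31 lower, as deposited, beside 18.6% and 19.9%, and 31.4% and 20.1%, of all tested genes. With TPM these splits turned to 4 higher and 32 lower, and to 31 higher and 8 lower, and with summed reads to 10 and 25, and 27 and 12, and quantile normalization gave 26 and 15, and 13 and 23. Relative to the median gene, 32 lay above and 15 below in all 5 scalings in DOX, and 18 above and 27 below in D_MgHCF against DOX. Without D_MgHCF 3 the calls were 29 higher and 11 lower, and 16 higher and 33 lower. Among the genes named below, this moved the log2 change of D_MgHCF against DOX from 2.30 to 1.66 for Chac1 and from -2.57 to -2.11 for Coq2. Other changes grew, from 1.997 to 2.295 for Gclc, 1.53 to 1.78 for Slc7a7 and -1.06 to -1.30 for Odc1. In limma, D_DXZ against DOX called none of the 62, and 11 had an unadjusted p under 0.05.

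Of 4 other acyl-CoA synthetases, 2 were higher and 1 lower in DOX as deposited, and 0 higher and 1 lower in D_MgHCF against DOX. Acsbg1, counted among the higher in DOX, averaged only 0.214 FPKM there. Acsl5 followed Acsl4, with 15.9 ± 0.504 FPKM in Unt, 45.4 ± 4.55 in DOX and 14.0 ± 2.53 in D_MgHCF (SD, n = 3). Its log2 change was 1.45 in DOX against Unt (SE 0.14, limma adjusted p = 2.26e-05) and -1.63 in D_MgHCF against DOX (SE 0.14, adjusted p = 1.01e-05), on the same side of the median in all 5 scalings. Acsl3 went the other way in DOX, from 10.2 ± 0.525 to 3.65 ± 0.620 FPKM (log2 change -1.28, SE 0.20, limma adjusted p = 0.000513, relative change -1.54 to -1.04). Of 6 lysophospholipid acyltransferases, 4 were higher and 1 lower in DOX as deposited, with Lpcat4 the highest (1.07, SE 0.14, limma adjusted p = 0.000119), and the same 4 and 1 counts lay above and below the median gene in all 5 scalings. In D_MgHCF against DOX 2 were higher and 3 lower, with Mboat1 the lowest (-1.51, SE 0.13, limma adjusted p = 1.2e-05), and 3 lay above and 3 below the median in all 5. Of 6 lipid oxidation genes, 4 were higher and 1 lower in D_MgHCF against DOX as deposited, while 2 lay above, 1 below and 3 on both sides of the median. Alox12 and Alox15, counted among the higher, averaged only 0.117 and 0.253 FPKM in D_MgHCF, near the floor. The list included Por, the cytochrome P450 reductase, at 0.94 (SE 0.08, limma adjusted p = 1.42e-05), and Cyb5r1 at -1.21 (SE 0.17, adjusted p = 0.00021), each on 1 side of the median in all 5 scalings.

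The coenzyme Q list, which serves Aifm2 and Dhodh, had 4 of 11 genes higher and 1 lower in DOX as deposited, and 2 higher and 7 lower in D_MgHCF than in DOX. In the latter comparison 8 of the 11 lay below the median gene in all 5 scalings, and the list's median relative change was -0.98 to -0.60. Coq2, which joins the ring and the tail of coenzyme Q, had 15.5 ± 0.559 FPKM in Unt, 33.5 ± 5.55 in DOX and 5.62 ± 4.23 in D_MgHCF (log2 change -2.57 against DOX, SE 0.36, limma adjusted p = 0.000201). The quinone reductase Nqo1 rose in DOX by 2.20 (SE 0.21, limma adjusted p = 2.09e-05) and had a relative change of 1.88 to 2.28. Cad, which makes the substrate of Dhodh, was lower in D_MgHCF than in DOX by -1.59 (SE 0.14, limma adjusted p = 1.43e-05), while its rise of 0.90 in DOX (adjusted p = 0.000511) had relative changes on both sides of the median.

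In the tetrahydrobiopterin list, 5 of 6 genes were higher in DOX than in Unt, and the list's median relative change was 1.13 to 1.43. Gchfr, whose product restrains Gch1, rose by 2.00 (SE 0.22, limma adjusted p = 5.27e-05). In D_MgHCF against DOX 5 of the 6 were lower as deposited, opposite to Gch1 itself, and 3 of them lay below the median gene in all 5 scalings while the other 3 were mixed. Gchfr was at -0.97 there (SE 0.22, limma adjusted p = 0.00461) and Pts, the next enzyme after Gch1, at -1.18 (SE 0.21, adjusted p = 0.000822), both below the median in all 5.

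Polyamine genes beside Sat1 had 5 of 10 higher in DOX as deposited, and 6 above and 2 below the median in all 5 scalings. In D_MgHCF against DOX 1 was higher and 6 lower as deposited, with 4 above and 3 below the median in all 5. Oaz1, the antizyme that removes ornithine decarboxylase, had 132.1 ± 8.48 FPKM in Unt, 627.2 ± 68.1 in DOX and 144.7 ± 53.1 in D_MgHCF (SD, n = 3). Its log2 changes were 2.24 and -2.17 (SE 0.23, limma adjusted p = 3.75e-05 and 3.83e-05), on 1 side of the median in each. Odc1, ornithine decarboxylase, had 0.34 in DOX (limma adjusted p = 0.275) and -1.06 in D_MgHCF against DOX (adjusted p = 0.00207), with mixed sides of the median in both. Smox, spermine oxidase, passed in neither, at 0.50 (limma adjusted p = 0.136) and 0.32 (adjusted p = 0.277). Without D_MgHCF 3 these became 0.50 (adjusted p = 0.00446) and -0.01 (adjusted p = 0.985).

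Partners of Slc3a2 did not share a direction. Slc7a11, the cystine carrier, fell in DOX from 5.50 ± 0.451 to 1.72 ± 0.150 FPKM (log2 change -1.25, SE 0.21, limma adjusted p = 0.000612, relative change -1.71 to -0.83). In D_MgHCF it had 1.01 ± 0.565 FPKM, -0.47 against DOX (limma adjusted p = 0.0799) and -0.69 without D_MgHCF 3 (adjusted p = 0.00512). Slc7a5, the leucine carrier, had 0.61 in DOX (limma adjusted p = 0.0123) and -1.18 in D_MgHCF against DOX (adjusted p = 0.00017), with mixed sides of the median in both. The former call was lost without Unt 1 (0.0536) or DOX 3 (0.0532). Slc7a7 was at 0.196 ± 0.110 FPKM in DOX and 2.62 ± 1.40 FPKM in D_MgHCF (log2 change 1.53, SE 0.21, limma adjusted p = 0.000187), above the median in all 5 scalings.

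In the glutathione list, 2 of 12 genes were higher in DOX, a share near the 18.6% of all genes, and 1 was lower, and 3 were higher and 5 lower in D_MgHCF against DOX, all as deposited. Ggt7, counted among the higher in DOX, averaged only 0.766 FPKM there. The counts above and below the median in all 5 scalings were 6 and 4, and 4 and 5. Gclc, the catalytic subunit of the rate-limiting step before Gss, had 9.19 ± 2.59 FPKM in DOX and 40.6 ± 14.0 FPKM in D_MgHCF, a log2 change of 2.00 (SE 0.25, limma adjusted p = 0.000101, relative change 2.02 to 2.44), where Gss had -0.96. Its regulatory partner Gclm had -0.37 (SE 0.12, limma adjusted p = 0.0245), a call lost without DOX 2 (0.0712), DOX 3 (0.0725) or D_MgHCF 1 (0.0575). Gpx4, the peroxidase that uses glutathione on lipid peroxides, rose in DOX from 113.4 ± 4.35 to 454.2 ± 48.5 FPKM (log2 change 1.99, SE 0.15, limma adjusted p = 1.17e-05, relative change 0.31 to 1.96). In D_MgHCF it had 188.5 ± 23.1 FPKM, -1.27 against DOX (SE 0.15, limma adjusted p = 6.88e-05), with mixed sides of the median. Chac1, which degrades glutathione, fell in DOX from 83.4 ± 6.67 to 5.66 ± 5.18 FPKM (log2 change -3.94, SE 0.67, limma adjusted p = 0.000771, relative change -4.53 to -3.96). In D_MgHCF it had 32.6 ± 27.5 FPKM, 2.30 against DOX (SE 0.67, limma adjusted p = 0.0158), a call lost without DOX 2 (0.0522) or DOX 3 (0.0649).

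**Figure D5:**
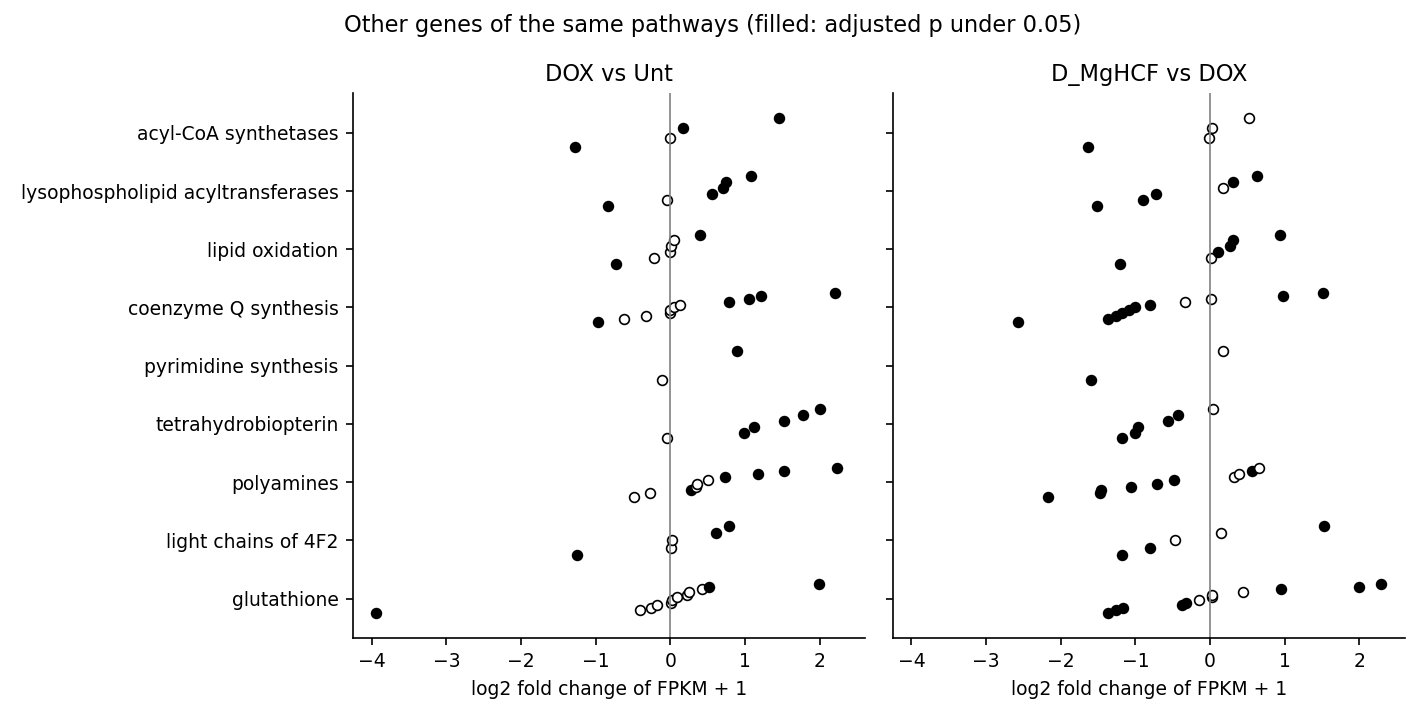
Log2 fold change of FPKM + 1 (x axis) of 62 genes of the same pathways by list (y axis), in DOX against Unt and D_MgHCF against DOX, as deposited; filled points have an adjusted p under 0.05. Filled points lie mostly right of 0 in DOX (26 against 6) and mostly left of 0 in D_MgHCF against DOX (31 against 13), splits that turn with TPM to 4 against 32 and 8 against 31, and Chac1 at -3.94 is the lowest point.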

How the data were processed

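Poly(A) RNA was sequenced as paired-end reads of 150 bp from NEBNext Ultra libraries, a kit that does not mark strand. Submitters' processing notes name HISAT2 2.0.5 and GRCm38/mm10. The counting program, the annotation release and the doses are not given in the sources used here. The authors deposited FPKM values, which per the file hold whole reads times a single step per library (100% of values whole within 0.02). The library sizes these steps imply were 0.65 (DOX 3) to 1.43 (D_MgHCF 2) times the reads on genes, read here as a median-ratio scaling. No sample column was left unused. Groups were taken from the treatment labels.

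limma 3.58.1 (R 4.3.3) was run on log2(FPKM + 1) with a mean-dependent prior, all 4 groups and no covariate, for 25044 genes above 0 in at least 3 libraries. FPKM are no counts, so the study's negative binomial test was not used as the main one. Alternatives were a pseudocount of 0.1, filters, an unadjusted p, fits of the groups compared alone, a replicate block, 4 other scalings or tests and each library left out. The fit was tested on simulated data, where DOX against Unt recovered 60 of 100 planted log2 changes of 1 and 96 of 100 of 2. A gene that was not called can therefore still differ. Near copies were searched with BLAST 2.17.0 (at least 95% identity over 150 bases). Partner genes were named as the called gene with the largest and the smallest change per list in DOX against Unt or D_MgHCF against DOX, plus Gpx4, Slc7a11, Gclc, Gclm, Slc7a5, Odc1 and Smox. Acsl3 was named after the values were seen, for its opposite direction in DOX. The members and lists were chosen with earlier results of these data known.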

Additional observations from a re-analysis of the deposited data

How the results depend on the processing

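Of 54 member results (9 genes, 6 comparisons), 22 alternatives were run. The unadjusted p among them cannot lose a call, and a left-out library of a group outside the comparison enters through the shared spread alone. Of 18 same-numbered pairs of libraries from different groups, 2 had deviations correlated over 0.1 (range -0.39 to 0.39), as had 8 of 36 other pairs (-0.40 to 0.31). Between DOX and D_DXZ the same-numbered pairs had 0.39, 0.05 and 0.30, and the others -0.40 to 0.21. With 3 libraries a group this check cannot exclude that equal numbers mark a shared batch. A replicate block left all 54 on their side of the threshold, with 6, 5, 6, 0, 8 and 7 members called in DOX vs Unt, D_DXZ vs Unt, D_MgHCF vs Unt, D_DXZ vs DOX, D_MgHCF vs DOX and D_MgHCF vs D_DXZ. At an unadjusted p under 0.05, D_DXZ vs DOX called 1 member and 11 partner genes. TPM and scaling by summed reads called 5 members each in D_MgHCF vs DOX (4 higher, 1 lower), where the deposited values gave 8. With TPM the sign turned in 23 results, namely DOX vs Unt for Acsl1 (-1.21), Acsl4 (-0.33), Aifm2 (-0.69), Gch1 (-0.0168) and Sat1 (-0.026), D_DXZ vs Unt for Acsl4 (-0.28), Lpcat3 (-0.00655), Aifm2 (-0.82), Gch1 (-0.0483) and Sat1 (-0.0431), D_DXZ vs DOX for Acsl4 (0.0596), Dhodh (0.0154) and Slc3a2 (0.0749), D_MgHCF vs DOX for Lpcat3 (0.66), Aifm2 (0.21), Sat1 (0.16), Slc3a2 (0.94) and Gss (0.16), and D_MgHCF vs D_DXZ for Lpcat3 (0.89), Aifm2 (0.33), Sat1 (0.18), Slc3a2 (0.87) and Gss (0.32). With summed reads it turned in 12, namely Acsl1 (-0.70) and Aifm2 (-0.27) in DOX vs Unt, Aifm2 (-0.38) in D_DXZ vs Unt, Acsl4 (0.0674), Dhodh (0.0185) and Slc3a2 (0.0853) in D_DXZ vs DOX, Lpcat3 (0.41) and Slc3a2 (0.69) in D_MgHCF vs DOX, and Lpcat3 (0.62), Aifm2 (0.0805), Slc3a2 (0.61) and Gss (0.0693) in D_MgHCF vs D_DXZ. Both scalings shift all genes by their construction, as the medians in the report show. Quantile normalization turned 9, namely Dhodh in DOX vs Unt (0.0434), Acsl1 in D_DXZ vs Unt (0.18), Acsl4 (0.0208), Sat1 (0.0339) and Slc3a2 (0.14) in D_DXZ vs DOX, Lpcat3 (0.28) and Slc3a2 (1.10) in D_MgHCF vs DOX, and Lpcat3 (0.46) and Slc3a2 (0.95) in D_MgHCF vs D_DXZ, and voom turned Acsl1 in DOX vs Unt (-0.12). The cause of these was not tested. Leaving out each library in turn gave 648 results, of which 12 lost and 9 gained the call and 4 turned, with Acsl1 in DOX vs Unt between -0.03 and 0.0462 and Gch1 in D_DXZ vs DOX between -0.29 and 0.0491. Fitting the groups compared alone lost 4 calls, those of Slc3a2 (adjusted p = 0.0503) and Gss (0.0879) in D_MgHCF vs Unt and of Aifm2 (0.0637) and Gss (0.0564) in D_MgHCF vs D_DXZ, and gained Aifm2 in D_DXZ vs Unt (0.0165). The D_MgHCF values of Dhodh rest on 55 to 89 reads, and with 3 libraries a group a difference that misses the threshold is not shown to be absent.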

Other observations

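A further 3 ratios of FPKM within a library, which are the same under any scaling by 1 factor a library but not after quantile normalization, were computed after the values were seen and are given without a test (mean ± SD, n = 3). Lpcat3 to Acsl4, the loading enzyme against the activating one, stood at 1.51 ± 0.284 in Unt, 2.22 ± 0.0524 in DOX, 1.82 ± 0.177 in D_DXZ and 3.96 ± 0.999 in D_MgHCF, where D_MgHCF 1 (5.11) lay above D_MgHCF 2 and 3 (3.41 and 3.36). Gss to Slc3a2 stood at 0.0312 ± 0.00119, 0.119 ± 0.007, 0.101 ± 0.0157 and 0.0726 ± 0.029 in the same order, and the Unt libraries lay below all others. Sat1 to Slc3a2 stood at 0.169 ± 0.0195, 0.506 ± 0.0665, 0.475 ± 0.0675 and 0.295 ± 0.0444, with each DOX and D_DXZ library above each D_MgHCF library and these above each Unt library.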
